A study of Mus musculus with 14 samples.

Results

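The interleukin 6 cytokine family and its signal transducer Stat3 were followed in hind limb skeletal muscle of mice lacking Myf6 (KO) and of wild-type (WT) mice. The 10 genes described were chosen by name: the ligands Il6, Lif and Osm, the receptor chains Il6ra, Osmr, Lifr, Cntfr and Il6st, the transcription factor Stat3 and its feedback inhibitor Socs3. All 10 were found in both deposited expression tables, each of which lists 49585 genes. RNA-seq covered 4 groups of 3 libraries: uninjured WT, uninjured Myf6 KO, injured WT and injured Myf6 KO muscle. The labels used here do not give the knockout allele, the kind of injury, the time after it, or the age and sex of the mice. Each genotype has 3 numbers that recur in its uninjured and injured libraries and are read here as 3 animals, each giving 1 uninjured and 1 injured library. The labels do not say whether the animals were littermates, so p-values measure the spread between these libraries. A list of binding sites of Flag-tagged Myf6 in primary myotubes, from 1 chromatin library and 1 control, came with the RNA data.

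Cytokines of this family signal through receptor complexes that share the chain gp130, encoded by Il6st. A ligand-specific chain (Il6ra for Il6, Osmr for Osm, Lifr for Lif, and Cntfr with Lifr for ciliary neurotrophic factor) completes each complex, Janus kinases then phosphorylate Stat3, and Stat3 switches on target genes that include Socs3, which shuts the receptor off. In skeletal muscle Il6 and Lif are known as myokines, proteins released by muscle fibres, and Osm acting on Osmr is known to hold muscle stem cells in quiescence.

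Levels are in RPM, a gene's reads per 1000000 reads of its library, and differences are on the log2(RPM + 1) scale with their standard error (SE). Recovered depth was 1880087 reads in uninjured WT replicate 2 and 12704444 to 49392522 reads in the other libraries, so that 3 reads, taken as the floor of detection, correspond to 0.0607 to 1.60 RPM. Myf6 itself was at 25.0 to 120.7 RPM in the 6 WT libraries and at 1.86 to 3.46 RPM in the 6 KO libraries. Muscle fibre genes (6 genes, among them Acta1 and Ckm) summed to 70924 to 85688 RPM in uninjured WT and 112520 to 123203 RPM in uninjured KO libraries, and to 75945 to 94854 and 76671 to 106965 RPM in injured ones. A pair of KO libraries, both of animal 2, stood apart. Injured KO replicate 2 had a correlation across 13337 genes of 0.901 and 0.909 with the other injured KO libraries and of 0.959 with injured WT replicate 1, and 23.2% of its reads were mitochondrial against 4.95% and 4.30% in the other injured KO libraries. Its Myf6 level of 2.88 RPM matched its KO label. Uninjured KO replicate 2 had a correlation of 0.890 with uninjured KO replicate 3, the lowest within a group. Its closest library was of its own group, uninjured KO replicate 1 (0.943, against at most 0.918 outside the group). It had 15.3% mitochondrial reads, against 6.76% and 3.63% in the other uninjured KO libraries. Without uninjured KO replicate 2 the median difference of all genes in uninjured muscle moved from -0.18 to 0.0033. The KO minus WT differences of the genes tested in the family are therefore also given without these libraries.

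In uninjured muscle, the clearest difference among the 10 genes was in Osmr, at 4.09 to 8.60 RPM in the KO libraries and 16.8 to 19.1 RPM in the WT libraries. Lif was also lower in each uninjured KO library than in any uninjured WT library. Only its WT libraries reached the 1 RPM needed for a test, so this direction was partly built in. In injured muscle, Il6st was higher in each KO library than in any WT library, at 126.8 to 134.1 RPM against 96.1 to 114 RPM. Of all genes tested, 15.5% lay apart and lower in uninjured KO muscle, and 8.29% apart and higher in injured KO muscle. None of the differences of Osmr, Lif and Il6st passed an adjusted p of 0.05 in the main limma fits across all genes. Stat3 and Socs3 overlapped between genotypes in both states.

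**Figure D1:**
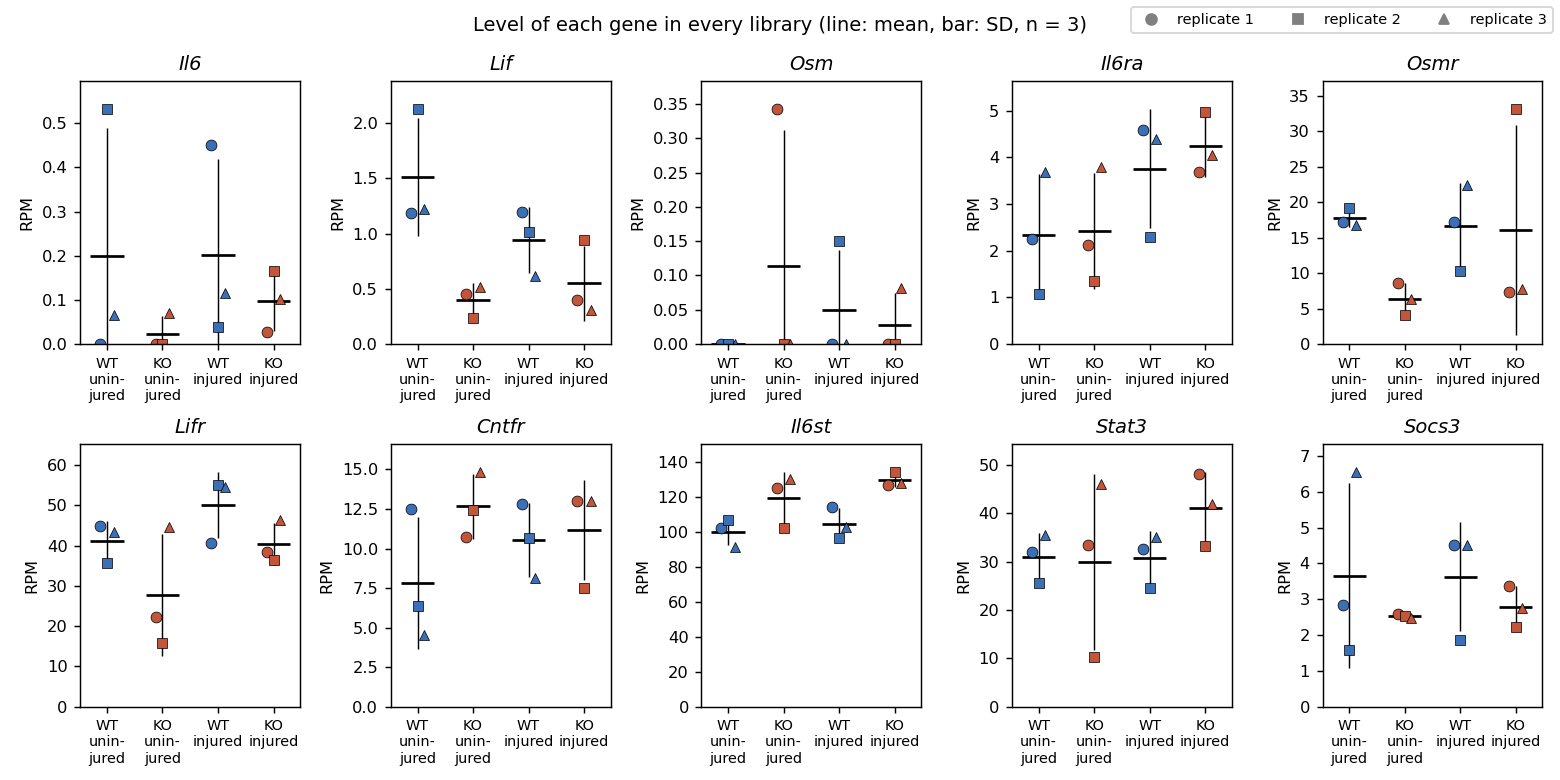
Level in RPM (vertical axis, linear, from 0, scaled per gene) of the 10 genes in each of the 12 libraries, with the mean and SD of each group of 3 (bars end at 0) and 1 marker shape per replicate number. The 3 uninjured KO libraries of Osmr lie between 4.09 and 8.60 RPM, below the 3 uninjured WT libraries, and injured KO replicate 2 is the highest of all 12 at 33.1 RPM.

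Among the ligands, Il6 and Osm were at or near the limit of detection. Il6, the founding cytokine of the family, was given by 25 reads in all, found in 9 of 12 libraries, and reached at most 0.532 RPM. That highest value was a single read in the shallowest library. Osm, oncostatin M, a ligand made mostly by blood cells, was given by 17 reads in 3 of 12 libraries and reached at most 0.342 RPM. In uninjured WT muscle no Osm read was found, which allows up to 0.0583 RPM (upper end of a 95% exact Poisson interval over the group's reads, counting error only). Neither ligand passed the filter on low values of the limma fits. Exact permutation tests over the libraries gave p = 0.7 and 0.6 for Il6 in uninjured and injured muscle, and p = 1 in both for Osm. The animal means of Il6 (log2 levels averaged and transformed back) lay at 0.0133 to 0.0856 RPM in KO and 0.0901 to 0.261 RPM in WT (p = 0.1, exact permutation), and rest on at most 6 reads in any library. In the authors' deposited table the q-values of Il6 were 0.986 and 0.994.

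Lif, leukemia inhibitory factor, was at 1.19, 2.13 and 1.22 RPM in the uninjured WT libraries and at 0.456, 0.236 and 0.514 RPM in the uninjured KO libraries. The 3 KO values lay below the 3 WT values, but the gene passed the filter on low values only through the WT libraries, so some difference in this direction was built in. The KO minus WT difference was -0.83 (SE 0.36), with a limma adjusted p of 0.348, and -0.74 without uninjured KO replicate 2. The counts behind it were small, 78 reads over the 3 WT libraries and 37 over the 3 KO libraries. In injured muscle the levels were 1.20, 1.01 and 0.612 RPM in WT and 0.401, 0.941 and 0.304 RPM in KO. There the groups overlapped through injured KO replicate 2, the highest of the KO values, and Lif was below the filter and not tested.

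The promoter of Lif is shown because Myf6 peaks flank the gene. Lif was also, partly through the filter, among the 2 genes of the family apart between the uninjured groups. Its 250 bases before the start listed by RefSeq (GRCm38.p6, chr11:4257318-4257567, plus strand) carry the E-box letters CANNTG, the general motif of myogenic factors, 3 times, in capitals here.
Lif: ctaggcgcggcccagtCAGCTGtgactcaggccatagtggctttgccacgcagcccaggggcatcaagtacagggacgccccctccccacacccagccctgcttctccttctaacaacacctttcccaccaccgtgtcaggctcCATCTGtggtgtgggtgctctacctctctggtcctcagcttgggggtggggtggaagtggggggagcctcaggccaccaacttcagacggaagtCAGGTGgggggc
The first of them, 234 bases before the start, reads CAGCTG. Both motifs read the same on either strand, and CAGCTG is one form of CANNTG. Of 32851 RefSeq promoters of the same length, 66.2% held CANNTG and 13% held CAGCTG. Of the 9 genes matched to the promoter table (not Osm), 8 held CANNTG and 4, namely Cntfr, Lif, Lifr and Stat3, held CAGCTG. A gene was counted if the window of any of its listed starts held the motif. Cntfr has 6 listed starts and Lifr 2, so these counts per gene cannot be set directly against the shares per promoter. A match of letters is a description of the sequence, not of binding.

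Osmr, which pairs with gp130 to form the receptor of oncostatin M, was at 17.2, 19.1 and 16.8 RPM in the uninjured WT libraries. In the uninjured KO libraries it was at 8.60, 4.09 and 6.34 RPM. The groups did not overlap, as for 15.5% of all genes in this direction, with means of 17.7 ± 1.25 (SD, n = 3) and 6.34 ± 2.25 RPM (SD, n = 3). The difference was -1.40 (SE 0.34), with a limma p of 0.00279 and an adjusted p of 0.138. An exact two-sided permutation test over the 6 libraries gave p = 0.1, the smallest that 3 against 3 can give. With DESeq2 on the recovered reads the difference was -1.30 and passed (adjusted p = 0.0215), where 5.32% of all genes passed. It also passed when the replicate number was a block (limma adjusted p = 0.0299, 6.04% of all genes), though WT and KO replicates share only a number. It did not pass without uninjured KO replicate 2 (-1.16, limma adjusted p = 0.122), with edgeR (adjusted p = 0.11) or in the authors' deposited table (q-value 0.101).

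The injured WT libraries held Osmr at 17.3, 10.3 and 22.5 RPM, and the injured KO libraries at 7.36, 33.1 and 7.73 RPM. Injured KO replicates 1 and 3 lay below all WT libraries, and replicate 2 lay above them all. The difference over the 3 KO libraries was -0.32 (SE 0.58, limma adjusted p = 0.886). Without injured KO replicate 2 it was -0.99 (SE 0.29, limma adjusted p = 0.055), in a fit where 19.0% of all genes passed an adjusted p of 0.05. Without injured KO replicate 1 its direction turned, to 0.03. With the uninjured and injured libraries of each animal averaged on the log2 scale, the difference over both states was -0.86 (SE 0.26, limma adjusted p = 0.157), with the 3 KO animals at 7.004 to 12.2 RPM and the 3 WT animals at 14.1 to 19.5 RPM after transforming back. Averaged as RPM instead, the animals overlapped, since KO animal 2 was then at 18.6 RPM and WT animal 2 at 14.7 RPM. Leaving out KO animal 2 gave -1.07 (SE 0.22), which passed at an adjusted p of 0.0079. In that fit 19.2% of all genes passed, so 1 of the 8 genes of the family tested was near the background.

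The last 30 bases before the listed start of Osmr (GRCm38.p6, chr15:6874314-6874343, minus strand) hold the only CANNTG of its 250-base window, in capitals, at 12 bases before the start. They are shown because Osmr had the largest difference of the family.
Osmr: gtaactcccgcccctggaCACTTGccccgt

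The genes whose log2 levels followed Osmr most closely over the 12 libraries, among 9921 genes at 1 RPM or more in every library, were Myo6 (Pearson r = 0.983), Slc25a27 (0.979), Zmym3 (0.979) and Nod1 (0.977). Each of these was high in injured KO replicate 2, as Osmr was: Myo6 was at 33.0 RPM there and at 10.1 and 9.33 RPM in the other injured KO libraries. The points share library depth and that 1 library, and the correlations are given as a description.

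Lifr, the leukemia inhibitory factor receptor, was at 44.9, 35.6 and 43.3 RPM in uninjured WT muscle and at 22.3, 15.9 and 44.7 RPM in uninjured KO muscle. KO replicates 1 and 2 lay below the WT libraries and KO replicate 3 did not, and the difference of -0.68 (SE 0.38) had a limma adjusted p of 0.455 and was -0.37 without uninjured KO replicate 2. Injured muscle held 40.7, 55.1 and 54.7 RPM in WT and 38.5, 36.4 and 46.4 RPM in KO. The injured difference was -0.30 (SE 0.19, limma adjusted p = 0.639), with the groups overlapping, and it was -0.23 without injured KO replicate 2. Over both states the difference was -0.49 (SE 0.25, limma adjusted p = 0.394), and -0.30 without KO animal 2.

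Il6ra, the chain that binds Il6, did not separate the genotypes. It was at 2.25, 1.06 and 3.69 RPM in uninjured WT and at 2.13, 1.34 and 3.79 RPM in uninjured KO libraries. Injured WT libraries held 4.58, 2.28 and 4.40 RPM, and injured KO libraries 3.69, 4.98 and 4.05 RPM. The value of 1.06 RPM, in the shallowest library, rests on 2 reads. The KO minus WT differences were 0.05 (SE 0.45) and 0.17 (SE 0.26), with limma adjusted p-values of 0.976 and 0.86. The first turned to -0.26 without uninjured WT replicate 2 and to -0.22 without uninjured KO replicate 3, and the second to -0.074 without injured WT replicate 2. Without uninjured or injured KO replicate 2 they were 0.29 and 0.074.

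Cntfr, the chain that binds ciliary neurotrophic factor, was at 12.5, 6.38 and 4.51 RPM in uninjured WT and at 10.7, 12.4 and 14.8 RPM in uninjured KO libraries. WT replicate 1 lay among the KO values, and the difference of 0.73 (SE 0.40) had a limma adjusted p of 0.447. After injury the values were 12.8, 10.7 and 8.11 RPM in WT and 12.98, 7.52 and 13.02 RPM in KO, a difference of 0.06 (SE 0.27, limma adjusted p = 0.962). Its direction turned without injured WT replicate 3 (-0.098), KO replicate 1 (-0.057) or KO replicate 3 (-0.059), and it was 0.30 without injured KO replicate 2 (limma adjusted p = 0.327).

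Il6st, the shared chain gp130, was counted with at least 200 reads in every library. Uninjured WT libraries held 101.8, 106.4 and 91.4 RPM and uninjured KO libraries 124.9, 101.9 and 130.2 RPM. KO replicate 2 fell within the WT range, and the difference was 0.25 (SE 0.24, limma adjusted p = 0.693). Injured WT libraries held 114.3, 96.1 and 102.8 RPM and injured KO libraries 126.8, 134.1 and 127.9 RPM. Here the groups did not overlap, as for 8.29% of all genes in this direction. The difference was 0.31 (SE 0.15), with a limma adjusted p of 0.549 and p = 0.1 by exact permutation, which cannot go lower here. Without injured KO replicate 2 the difference was 0.29 (limma adjusted p = 0.162). Over both states, with log2 levels averaged and transformed back, the KO animals were at 117 to 129 RPM and the WT animals at 97.0 to 108 RPM, a difference of 0.28 (SE 0.17, limma adjusted p = 0.475), and 0.32 without KO animal 2 (limma adjusted p = 0.169).

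Stat3 was at 31.9, 25.5 and 35.5 RPM in uninjured WT libraries and at 33.4, 10.3 and 46.1 RPM in uninjured KO libraries. The KO values spanned the WT range on both sides, and the difference of -0.27 (SE 0.49, limma adjusted p = 0.85) turned to 0.34 without uninjured KO replicate 2. Injured muscle held 32.7, 24.6 and 35.1 RPM in WT and 48.1, 33.2 and 41.9 RPM in KO. KO replicates 1 and 3 lay above all WT libraries and replicate 2 within their range, with a difference of 0.40 (SE 0.22, limma adjusted p = 0.572). Without injured KO replicate 2 it was 0.55 (SE 0.18, limma adjusted p = 0.0747), in a fit where 19.0% of all genes passed an adjusted p of 0.05.

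Socs3 was at 2.83, 1.60 and 6.56 RPM in uninjured WT and at 2.59, 2.52 and 2.48 RPM in uninjured KO libraries. The KO libraries lay close together inside the WT range, and WT replicate 2 gave only 3 reads. Injured WT libraries held Socs3 at 4.50, 1.87 and 4.52 RPM, and injured KO libraries at 3.37, 2.21 and 2.75 RPM. The differences were -0.26 (SE 0.45) and -0.24 (SE 0.31), with limma adjusted p-values of 0.838 and 0.831. The uninjured difference of Socs3 turned to 0.16 without uninjured WT replicate 3, and the injured one was -0.13 without injured KO replicate 2.

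Stretches of the Stat3 and Socs3 promoters are shown because Socs3 is a known Stat3 target and alone of the 9 genes matched held the Stat motif TTCNNNGAA. Of all RefSeq promoters of this length 7.02% held it. The Stat3 stretch (chr11:100939541-100939570, minus strand) ends at the base before the listed start and has CAGCTG in capitals. The Socs3 stretch (chr11:117969501-117969530, minus strand, both GRCm38.p6) has the Stat motif in capitals, its first base 154 bases before the listed start. Socs3 was the only one of the 9 genes with no CANNTG in any listed window.
Stat3: cagggtggcctagcCAGCTGgccattcctt
Socs3: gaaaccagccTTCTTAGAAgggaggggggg

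The genes closest to Stat3 over the 12 libraries were Ciapin1 (r = 0.977), Tdrd7 (0.977), Nsd2 (0.969) and N6amt1 (0.968). Those closest to Socs3 were B3galt6 (0.901), Zscan29 (0.898), Jund (0.896) and Gadd45b (0.889). Socs3 and each of its neighbours were highest in uninjured WT replicate 3, with B3galt6 at 4.25 RPM there. The points share library depth and these single libraries, and the correlations are given as a description.

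Across the family, 8 of the 10 genes could be tested in uninjured muscle, 7 in injured muscle (not Lif) and 8 over both states. No gene of the family passed an adjusted p of 0.05 in the main limma fit of any of these comparisons, where 0.281%, 0.269% and 1.16% of all genes passed. At an unadjusted p under 0.05, 2 (Osmr and Lif, both lower in KO) did so in uninjured muscle, where 10.7% of all genes were lower at that level. Over both states the same pair did so, beside 11.7% of all genes. In both comparisons Lif reached 1 RPM in WT libraries only and passed the filter through them, so its direction was partly built in and only Osmr can be read against these shares. At that level in injured muscle no gene of the family passed, where 5.06% of all genes were higher and 5.26% lower. Osmr had every uninjured KO library below every uninjured WT library, as had 15.5% of all genes. So had Lif, with the same limit from the filter. In injured muscle Il6st was the 1 gene of the 7 with every KO library higher, as had 8.29% of all genes. Of the animal means of log2 levels over both states, those of Osmr were lower in each KO animal than in any WT animal, as for 15.5% of all genes. Those of Il6st were higher, as for 6.79%. The animal means of Lif were also apart and lower in KO, again partly built in by the filter. The median difference of the genes tested was -0.26 in uninjured and 0.06 in injured muscle, beside -0.18 and 0.01 over all genes tested. Without uninjured or injured KO replicate 2 these medians were 0.019 and 0.074, beside 0.0033 and 0.031 over all genes. The uninjured differences of Il6st, Cntfr and Socs3 were 0.35, 0.73 and -0.26 without uninjured KO replicate 2. DESeq2 on the recovered reads called 1 gene of the family in uninjured muscle, Osmr, and none in injured muscle, and edgeR called none in either.

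**Figure D2:**
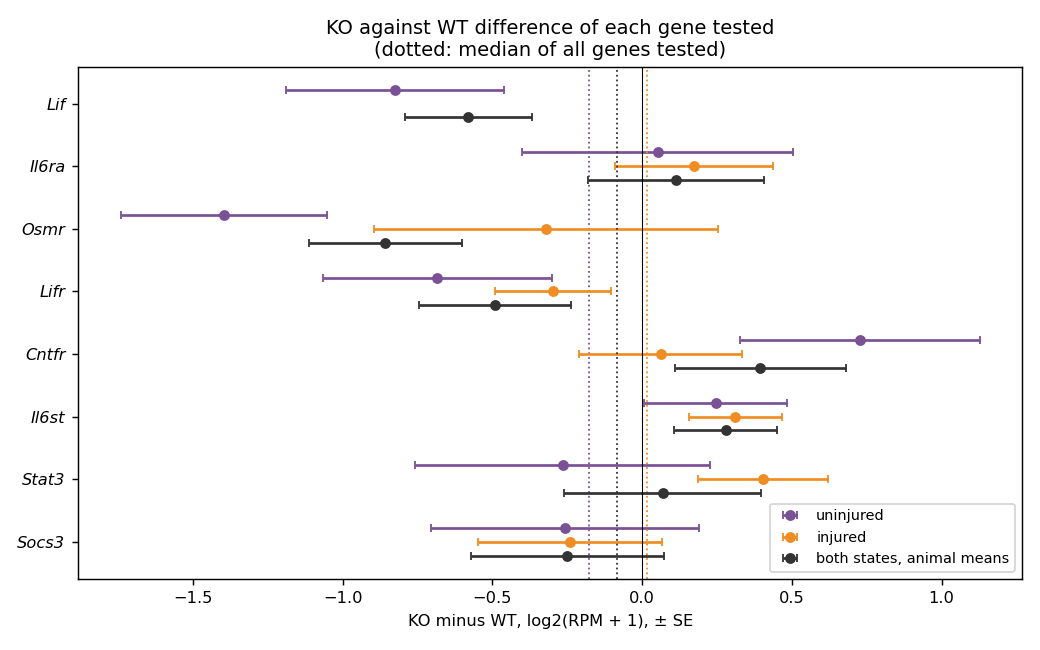
KO minus WT difference on the log2(RPM + 1) scale (horizontal axis, point ± SE) of the genes that could be tested, in uninjured muscle, injured muscle and over both states with the libraries of an animal averaged. Osmr lies farthest from 0, at -1.40 in uninjured muscle, and the dotted lines mark the median of all genes tested in each comparison.

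Markers of the cell types that muscle holds were summed beside Osmr and Lif. In uninjured muscle no gene of these lists passed an adjusted p of 0.05 in the main limma fit. The muscle fibre sums given above did not overlap between the uninjured genotypes (mean log2 difference 0.95, exact permutation p = 0.1). Over both states 1 of these 6 genes passed, beside 1.16% of all genes. It was Myh7, the slow myosin heavy chain, higher in KO (2.32, limma adjusted p = 0.0411). Without KO animal 2, 4 of the 6 passed, Myh7 among them and all higher, beside 19.2% of all genes. In uninjured muscle Myh7 passed without uninjured KO replicate 2, beside 0.261% of all genes. Macrophage markers (7 of 7 detected) summed to 82.4 to 158 RPM in uninjured WT and 46.9 to 80.4 RPM in uninjured KO muscle, and to 103 to 144 RPM and 90.1 to 90.7 RPM in injured muscle (exact permutation p = 0.2 and 0.1 on the mean log2 level). Markers of fibro-adipogenic progenitors, connective tissue cells in which Osmr is commonly found, summed to 319 to 904 RPM in uninjured WT and 261 to 586 RPM in uninjured KO muscle (5 of 5 detected, exact permutation p = 0.2). The 5 endothelial markers summed to 188 to 242 RPM in uninjured WT and 192 to 241 RPM in uninjured KO libraries, and to 399 RPM in injured KO replicate 2, above the 154 to 255 RPM of the other injured libraries. Schwann cell markers (4 of 4 detected) summed to 337 to 633 RPM in uninjured WT and 148 to 440 RPM in uninjured KO libraries (-0.89, exact permutation p = 0.1), and to 1124 RPM in injured KO replicate 2, against 193 and 303 RPM in the other injured KO libraries. Red blood cell markers summed to 333 to 548 and 159 to 396 RPM, and adipocyte markers to 369 to 553 and 500 to 1143 RPM, in uninjured WT and KO libraries (-0.95 and 0.97, exact permutation p = 0.2 for each). Satellite cell and T cell markers differed by -0.30 and -0.54 (exact permutation p = 0.4 and 0.3). Neutrophil markers summed to 0.532 to 6.46 RPM, with Ly6g at 0 in both uninjured groups. The mitochondrial share of reads was 13.8 to 22.3% in uninjured WT and 3.63 to 15.3% in uninjured KO libraries. The part of these markers in the differences was not tested, and in bulk tissue fewer cells of a type and less RNA per cell cannot be told apart.

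Injury was compared within each genotype on all 12 libraries. In WT muscle the differences of the 8 genes tested, injured minus uninjured, ran from -0.36 (Lif) to 0.55 (Il6ra), and in KO muscle from -0.19 (Cntfr) to 0.93 (Osmr). None passed in limma at an adjusted p of 0.05, as for 0.0% of all genes in either genotype. None passed at an unadjusted p of 0.05 either, where 0.832% of all genes were higher and 0.457% lower after injury in WT muscle, and 3.41% and 0.0975% in KO muscle. DESeq2 and edgeR also called none of the family there. Il6ra was higher in the injured library of each of the 6 animals, by 0.08 to 1.35, as were 3.76% of all genes, and the median injury difference of all genes was 0.09 in WT and 0.29 in KO muscle. In WT animals Osmr was nearly level in animal 1 (17.2 and 17.3 RPM), lower after injury in animal 2 and higher in animal 3. In KO animals it went from 4.09 to 33.1 RPM in animal 2 and from 8.60 to 7.36 and 6.34 to 7.73 RPM in animals 1 and 3, so the KO injury difference of 0.93 (SE 0.48, limma adjusted p = 0.728) was 0.27 without injured KO replicate 2. Lifr was higher after injury in the 3 KO animals, by 0.77, 1.14 and 0.05, and in 2 of the 3 WT animals. Of all genes, 80.9% had an estimate above 0 after injury in KO muscle and 62.4% in WT muscle. The KO injury difference of Lifr was 0.65 (SE 0.32, limma adjusted p = 0.728), and 0.29 to 1.06 over 22 alternative fits. The genotype by injury difference of Osmr was 1.08 (SE 0.68), with a limma adjusted p of 0.9999, and 0.0% of all genes passed. Without injured KO replicate 2 it was 0.41.

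**Figure D3:**
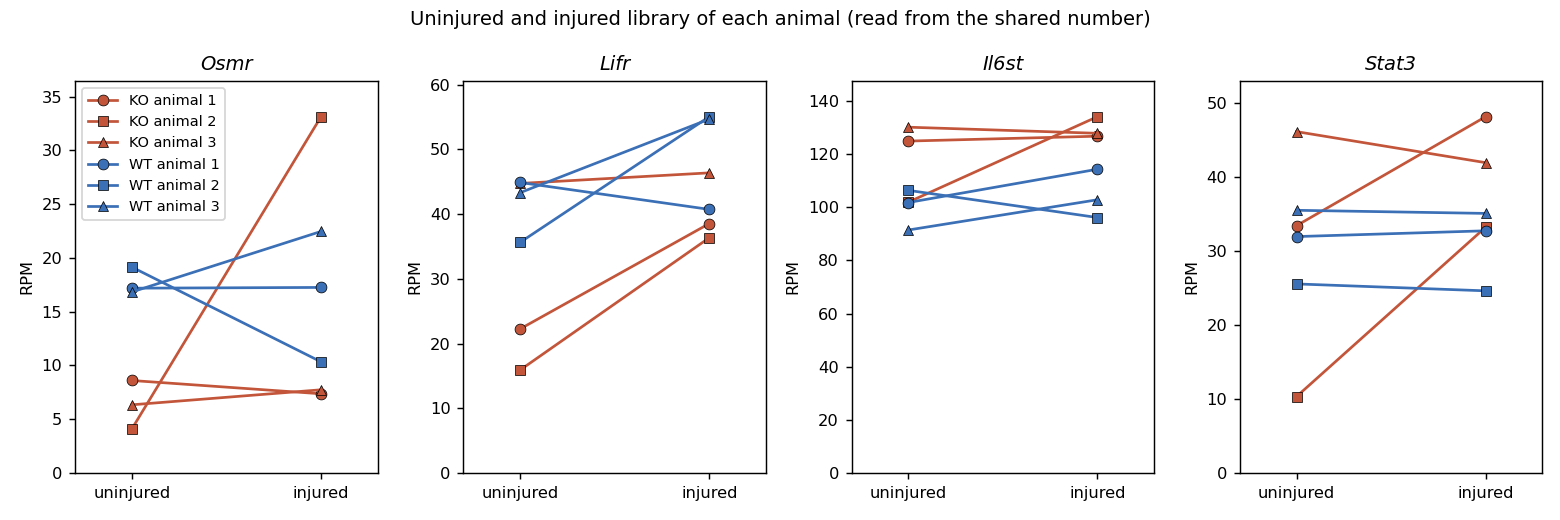
RPM (vertical axis, linear, from 0) of Osmr, Lifr, Il6st and Stat3 in the uninjured and injured library of each of the 6 animals, joined by a line, WT in blue and KO in red. The steep Osmr line is KO animal 2, from 4.09 to 33.1 RPM, and the 3 injured KO libraries of Il6st lie above the 3 injured WT libraries.

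The rest of the pathway was read from lists of other ligands (9 genes), other receptors (3), Janus kinases and other Stat factors (10), other inhibitors (14), Stat3 targets (16) and immediate early genes (6). In uninjured and in injured muscle no gene of these lists passed an adjusted p of 0.05 in the main limma fits. Over both states 1 gene of these lists passed, where 1.16% of all genes did. The gene was Vegfa, the vascular endothelial growth factor, which Stat3 among others can induce, and it was lower in KO muscle. It was at 264, 179 and 192 RPM in uninjured WT, 76.0, 45.4 and 74.1 RPM in uninjured KO, 249.1, 193.8 and 225.3 RPM in injured WT and 64.5, 147 and 66.8 RPM in injured KO libraries. The 6 KO libraries of Vegfa lay below the 6 WT libraries, as did those of 2.26% of all genes, and the difference was -1.53 (SE 0.20, limma adjusted p = 0.0158). This call was lost when any of the 3 WT animals or KO animal 1 was left out, with differences of -1.63 to -1.40 in those fits. The difference was -1.60 without KO animal 2 (limma adjusted p = 0.000362), where 19.2% of all genes passed. Without injured KO replicate 2, where 19.0% of all genes passed in injured muscle, 8 genes of these lists passed there. They were Ctf1 (higher) of 4 other ligands tested, Stat2 (lower) of 9 Janus kinases and other Stat factors, and 3 of 14 other inhibitors (higher). Of 14 Stat3 targets tested there, Serpina3n (higher), Pim1 and Vegfa (lower) passed. None of 2 other receptors and 5 immediate early genes did, so the lists were near that background.

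Among the other ligands 4 of 9 could be tested, with 1 higher and 3 lower estimates in uninjured KO muscle, where 36.8% of all genes had a higher estimate. Cntf, ciliary neurotrophic factor, was at 9.94 to 15.5 RPM in uninjured WT and 2.60 to 11.2 RPM in uninjured KO muscle, a difference of -1.25 (limma adjusted p = 0.285). In injured KO replicate 2 Cntf was at 34.6 RPM, against 4.79 and 7.07 RPM in the other injured KO libraries. Il11, Ctf2, Il27, Ebi3 and Il31 were below the filter.

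Of the Janus kinases and other Stat factors 9 of 10 could be tested, with a median difference of -0.17 in uninjured and -0.07 in injured muscle (-0.098 without uninjured and -0.018 without injured KO replicate 2). Stat2, a factor of interferon signalling, was at 23.8, 19.1 and 25.4 RPM in uninjured WT and 8.10, 7.64 and 4.51 RPM in uninjured KO libraries. Its difference was -1.64 (SE 0.33, limma adjusted p = 0.082). In injured KO muscle Stat2 was at 4.71, 31.5 and 5.32 RPM, the same high replicate as for Osmr. The injured difference went from -0.80 (limma adjusted p = 0.723) to -1.61 without that replicate (limma adjusted p = 0.0159), where 19.0% of all genes passed. Jak1 and Stat5b differed by -0.17 and 0.06 in uninjured muscle.

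All 14 other inhibitors could be tested, with 5 higher and 9 lower estimates in uninjured KO muscle, close to the share of all genes, and a median of -0.33, which was 0.06 without uninjured KO replicate 2. Socs2, an inhibitor known for damping growth hormone signalling, was at 30.1, 13.3 and 23.5 RPM in uninjured WT and 10.9, 3.94 and 4.93 RPM in uninjured KO libraries (difference -1.66, SE 0.44, limma adjusted p = 0.157). In injured muscle Socs7 was the 1 inhibitor with every KO library above every WT library, at 39.0 to 49.7 against 27.1 to 31.3 RPM (difference 0.57, limma adjusted p = 0.339), a share of the 14 near the 8.29% of all genes. Its difference was 0.66 without injured KO replicate 2 (limma adjusted p = 0.0236), where 19.0% of all genes passed.

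Of the Stat3 targets 15 of 16 could be tested. In uninjured KO muscle 6 had higher and 9 lower estimates, with a median of -0.21, and in injured KO muscle 11 were higher and 4 lower, with a median of 0.06. Of all genes 36.8% and 52.0% had a higher estimate, and without injured KO replicate 2 the split of the targets was 8 to 6. Pim1, a kinase gene, was at 18.6 to 23.9 RPM in injured WT and 10.1 to 16.9 RPM in injured KO libraries, and Cebpd, a transcription factor gene, at 15.5 to 18.9 and 8.30 to 12.9 RPM (limma adjusted p = 0.38 and 0.327). Their differences were -0.89 and -0.58 without injured KO replicate 2 (limma adjusted p = 0.0172 and 0.057), in a fit where 19.0% of all genes passed. Serpina3n, a protease inhibitor gene, lay the other way, at 1.38 to 1.95 RPM in injured WT and 2.38 to 16.9 RPM in injured KO muscle (limma adjusted p = 0.478, and 0.0363 without injured KO replicate 2). Immediate early genes (5 of 6 tested) had medians of 0.22 in uninjured and 0.06 in injured muscle, the latter -0.13 without injured KO replicate 2.

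**Figure D4:**
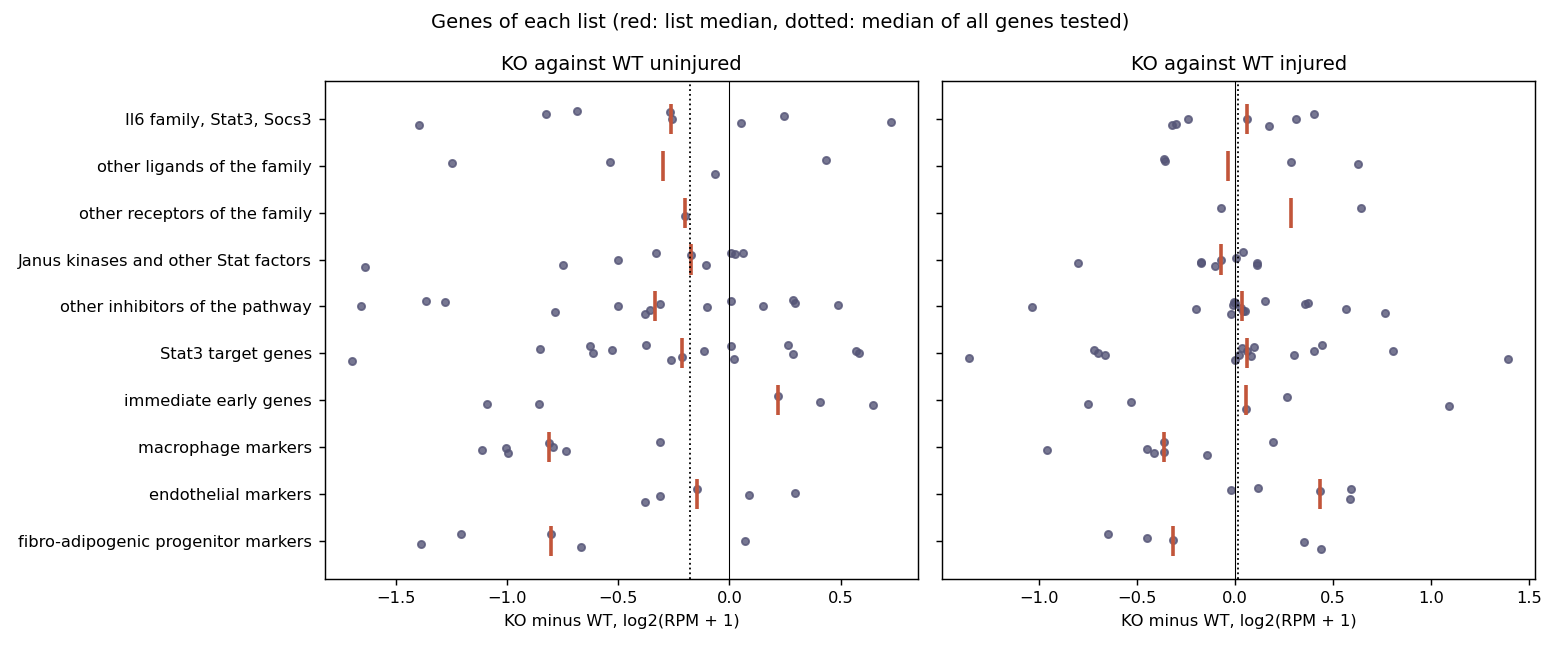
KO minus WT difference on the log2(RPM + 1) scale (horizontal axis, 1 point per gene tested) for the family, the pathway lists and 3 lists of cell type markers, in uninjured and injured muscle. The red bar is the list median, -0.26 for the family in uninjured muscle, beside the dotted median of all genes tested, -0.18.

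Binding of Flag-tagged Myf6 in myotubes was read from the authors' peak list of 12898 peaks, whose positions, heights and folds are the authors' values from 1 library. Of the 9 genes with a listed start (not Osm), 7 had a peak in the gene or with its summit within 50 kb of a start, as did 41.4% of protein-coding genes. With a fold of at least 10 these were 2 (Lif and Il6st), beside 16.8% of protein-coding genes. No summit lay within 10 kb of a start of the 9 genes, and 4 counted at that distance through peaks inside the gene, beside 21.7%. Within 100 kb 8 had a peak, beside 56.9%. The 20 peaks had a median fold enrichment of 7.45, against 7.68 over all peaks. Peaks lay inside 4 of the genes (7 peaks), as they did in 16.8% of protein-coding genes. None lay in the 250-base promoter windows.

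The receptor gene with the strongest peak inside it was Il6st, with a fold of 13.04 at chr13:112483157-112483322, 19.2 kb past the start, and a second peak of fold 11.1 lay 38.8 kb before the start. Lifr held 3 peaks of fold 4.11 to 6.24, the nearest 10.5 kb from a listed start. Cntfr held 1 peak of fold 7.25, 25.9 kb past the nearest listed start. Osmr had none, with the nearest 135 kb from its start, and Il6ra had none within 50 kb, with the nearest at 62.2 kb.

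Lif was flanked by 4 peaks, among them the 2 with the highest folds at any of the 9 genes with a listed start. The first, fold 16.2 at chr11:4228479-4228856, lay 28.8 kb before the Lif start and 8.02 kb from the neighbouring gene Osm, and the listed start nearest to it is that of Castor1. The second, fold 15.9 at chr11:4296664-4297051, lay 39.2 kb past the Lif start. Il6 had 1 peak of fold 7.25, 16.2 kb past its start and outside the gene.

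Stat3 had 2 peaks inside the gene, of fold 6.93 and 5.97, and 1 of fold 8.91 before it. The peak of fold 6.93 lay closer to the start of the neighbouring gene Stat5a than to that of Stat3. The peak of fold 8.91 lay 4823 bases from the start of Cavin1 and 35.9 kb from that of Stat3. Socs3 had 6 peaks, the most of the 9 genes with a listed start, 17.0 to 45.9 kb from its start, with folds of 5.48 to 9.18. One of them lay 75 bases from the start of Pgs1.

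**Figure D5:**
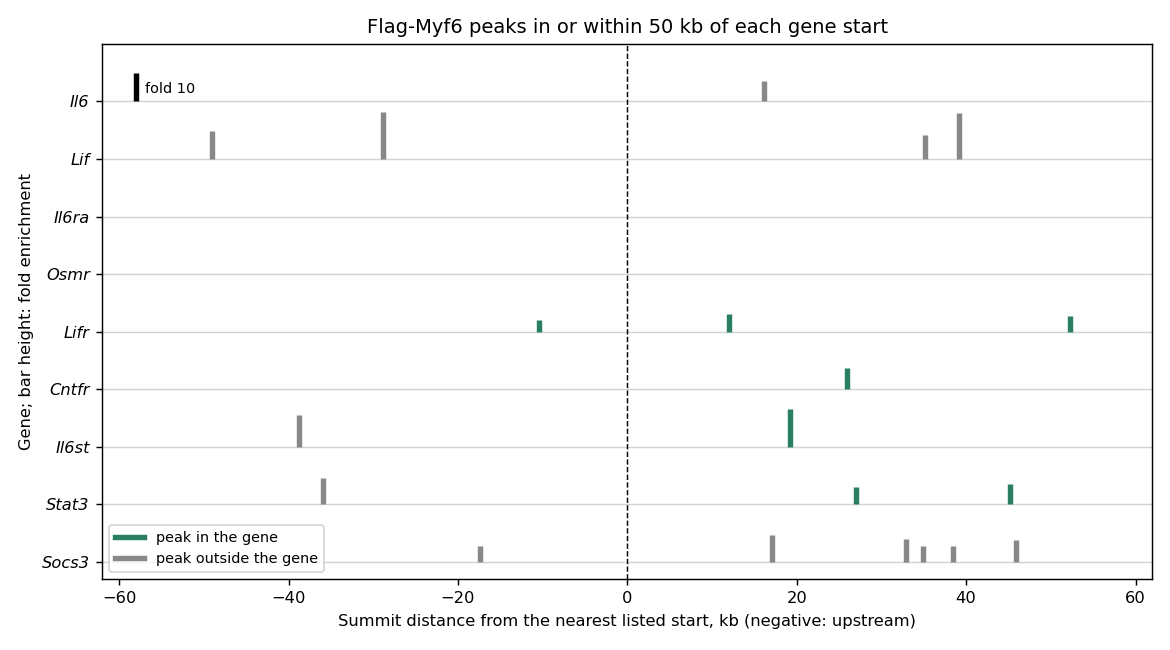
Summit position of each Flag-Myf6 peak in or within 50 kb of 9 of the genes (Osm, with no listed start, is left out), as distance in kb from the nearest listed start (horizontal axis), with bar height giving the fold enrichment and green marking peaks inside the gene. Socs3 has 6 peaks, Lif has the tallest bar at fold 16.2, and Osmr and Il6ra have none.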

How the data were processed

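RNA was extracted with Trizol and sequenced after TruSeq RNA v2 library preparation, per the labels' protocols. The authors deposited, for each injury state, a table of RPM values per gene and library, and for each gene their own log2 fold change, SE, p-value and q-value. Their sign is WT over KO and was turned here. The submitters' processing notes name HISAT2 2.1.0, SAMtools, featureCounts, DESeq2, Bowtie 1.1.0 and MACS2 2.1.0.20140616, with no role. Whether counting used strand is not given in the sources used here, so a gene and an antisense partner cannot be told apart. The deposited peak list, made with MACS2 per the file headers (q cutoff 0.05, reads extended to 127 bp), gives pileup signal, a fold enrichment ratio and p and q on a −log10 scale, per the file headers. The notes name mm10 and GRCm38.p5, whose chromosomes are those of GRCm38.p6, the build of the RefSeq tables of gene positions and promoters used here.

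Whole reads were recovered from the RPM values of each library (100% of testable values whole within 0.1 read). Tests used limma 3.58.1 in R 4.3.3. The values log2(RPM + 1) were fitted with eBayes and a trend, over genes at 1 RPM or more in at least 3 of the libraries fitted, with two-sided Benjamini-Hochberg adjusted p-values over all genes tested and a threshold of 0.05. KO and WT were compared in the 6 libraries of each state and, over both states, in the mean log2 levels of 3 against 3 animals. Injury and its interaction with genotype were fitted on all 12 libraries. The recovered reads were also tested with DESeq2 1.42.0 and, added after seeing the data, edgeR 4.0.16. Scaling to reads outside mitochondrial genes was added then too. The test was checked on simulated data. Uninjured and injured libraries are paired by the animal number in the labels, and the deviations of such libraries from their group means correlated at -0.23 to 0.63. With the animal as a block, no gene of the family changed its call. WT and KO replicates share only a number.

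The 10 genes and all lists were chosen with earlier results of these data known. Beside the 10 genes, those named from a pathway list are among its smallest p-values in a comparison, and a few (Il11, Ctf2, Il27, Ebi3, Il31, Jak1, Myh7, Castor1, Cavin1, Pgs1 and Stat5a) were named after their values were seen.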

Additional observations from a re-analysis of the deposited data

How the results depend on the processing

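No gene of the family was called in any comparison in the main limma fits, with all libraries of the comparison and no block. In uninjured muscle this count became 1 with the replicate block and 1 with DESeq2, Osmr each time. Over both states it was 0 to 1 when single animals were left out, the 1 being Osmr without KO animal 2. WT and KO share only replicate numbers: same-numbered uninjured libraries deviated together with r = 0.04 to 0.37 and injured ones with -0.60 to -0.30, and with the block 752 genes in all were called in uninjured muscle and 0 in injured muscle, against 35 and 34 without it. The counts over all genes in uninjured, injured and both states were 35, 34 and 155 in limma. For uninjured muscle DESeq2 gave 663, edgeR 55, upper quartile scaling 156, TMM 107, library totals without mitochondrial reads 199, all 12 libraries in 1 fit 167, a pseudocount of 0.1 20, no filter 1, a filter on every library 7 and the authors' deposited q-values 331. For injured muscle DESeq2 gave 427, edgeR 33, 1 fit 56, no filter 19, a filter on every library 4 and the authors' deposited q-values 225. Over both states scaling outside mitochondrial genes gave 268, a pseudocount of 0.1 97, the block 96, no filter 35 and a filter on every library 7. Leaving out single libraries or animals gave 3 to 84, 0 to 2343 and 18 to 2517, the highest without uninjured KO replicate 3, injured KO replicate 2 and KO animal 2. In uninjured muscle 19 of the calls were lower and 16 higher. Upper quartile scaling gave 57 and 99, TMM scaling 46 and 61, scaling outside mitochondrial genes 168 and 31, the block 571 and 181 and DESeq2 322 and 341. The median difference of all genes there was -0.18, 0.04 with upper quartile scaling and -0.32 outside mitochondrial genes.

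Of 92 differences of single genes, 72 kept their direction under every alternative run, among them Osmr in uninjured muscle, at -1.61 to -1.16 over 18 alternatives (adjusted p 0.0215 to 0.613), and Il6st in injured muscle, at 0.25 to 0.38. The other 20 turned somewhere, and the cause was not tested. In uninjured muscle Stat3 was 0.035 with DESeq2, 0.035 with edgeR and 0.045 in the authors' deposited table, Il6ra was -0.056 outside mitochondrial genes, Clcf1 was 0.13 with upper quartile and 0.10 with TMM scaling, and Il11ra1 was 0.056, 0.034, 0.099, 0.086 and 0.10 with upper quartile scaling, TMM scaling, DESeq2, edgeR and the authors' deposited table. Over both states Il11ra1 was 0.011 with upper quartile scaling and Stat3 was -0.014 outside mitochondrial genes. With single libraries left out, the uninjured difference ran from -0.68 to 0.34 for Stat3, -0.26 to 0.34 for Il6ra, -0.61 to 0.16 for Socs3, -0.34 to 0.17 for Clcf1 and -0.10 to 1.05 for Egr1. The injured difference ran from -0.99 to 0.028 for Osmr, -0.074 to 0.31 for Il6ra, -0.10 to 0.30 for Cntfr, -0.17 to 1.15 for Cntf, -0.35 to 0.14 for Stat5b, -0.29 to 0.069 for Il11ra1 and -0.026 to 0.43 for Atf3. Over both states it ran from -0.15 to 0.45 for Stat3, -0.16 to 0.31 for Il6ra, -0.58 to 0.039 for Socs3, -0.49 to 0.065 for Clcf1 and -0.067 to 0.14 for Il27ra, and the WT injury difference of Osmr from -0.38 to 0.15. Vegfa over both states did not pass with no filter or with a filter on every library. In uninjured muscle, where no pathway list gene passed in the main fit, Vegfa passed in 9 of 18 alternatives, Stat2 in 3 and Socs2 in 2. In injured muscle Vegfa and Serpina3n each passed in 2 of 18. The 7 genes with a Myf6 peak became 2 with a fold of at least 10, 4 in the gene or within 10 kb and 8 within 100 kb. Depth limits Il6, Osm, Lif, Il6ra and Socs3, each with 3 reads or fewer in at least 1 library.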
